A study of Mus musculus with 6 samples.

Results

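Poly(A)-binding proteins coat the tail that most messenger RNAs carry at their 3′ end. This account follows 10 mouse genes: the poly(A)-binding proteins Pabpc1, Pabpc4 and Pabpn1, their regulators Paip1 and Paip2, the La-related proteins Larp1 and Larp4, the adaptor Tob1, and the deadenylase subunits Pan2 and Pan3. The set was chosen by function around Pabpc4, which was itself selected on its FPKM values because they separated knockout from control livers. All 10 were found among the 54532 genes of the deposited table. The comparison of the groups for these genes is therefore given as a description, with no test of any member.

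Liver RNA was sequenced from mice with a hepatocyte-specific G3bp1 knockout (HKO, 3 libraries) and from litter controls carrying the floxed gene (Flox, 3 libraries). Every animal ate a high-fat diet for 12 weeks, starting when 6 weeks old, so no group on ordinary food was available as a baseline. The Cre driver and the deleted exons were not named in the labels, and cells other than hepatocytes keep G3bp1 in this design. No label says that each library came from a separate animal, so p-values measure only the spread between libraries, which may be technical. G3BP1 binds RNA and drives assembly of stress granules, in which poly(A)-binding proteins are standard components. The study asked what it does in steatohepatitis.

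In the cytoplasm PABPC1 and PABPC4 bind the poly(A) tail and, through the initiation factor eIF4G, link it to the cap at the other end of the message. PAIP1 favours and PAIP2 hinders that role. TOB1 brings the CCR4-NOT deadenylase to PABPC-coated tails, while PAN2 and PAN3 form a deadenylase that PABPC itself recruits. PABPN1 works on new tails in the nucleus, LARP4 lengthens or protects tails, and LARP1 binds messages that begin with a terminal oligopyrimidine (TOP) tract, a start typical of translation machinery genes.

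Sequence features of the members are shown first because the cytoplasmic poly(A)-binding proteins were the pair that stood higher in HKO. Stretches of A in the 5′ leader of the Pabpc1 message are known as a site through which the protein limits its own synthesis. The 30-base window richest in A was taken from the leader of each GENCODE M21 coding transcript (GRCm38), with A in capitals. It lies in the 5′ untranslated region in each case, without crossing an exon boundary. The position is chr15:36608840-36608869 on the minus strand for Pabpc1-201 and chr4:123282922-123282951 on the plus strand for Pabpc4-202. It is chr4:123282891-123282920 on the plus strand for Pabpc4-203 and Pabpc4-204.
Pabpc1-201 leader: gAAAAAAcccAAAAAAAAtttAcAAAAAAA
Pabpc4-202 leader: gAAAAAAAAAAgcAAAAgggAAAAAAAgAA
Pabpc4-203 leader: tAAAAAAAAAAAAAAgAAAAgAAAAgAAgA

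These windows hold 22, 23 and 25 A among 30 bases. Of 19136 genes with a leader of at least 30 bases, 0.867% had a window with at least 22 A, and the median gene reached 10. Pabpc4-201, the other coding transcript, begins further downstream and reaches only 11. The deposited table gives 1 value per gene, so transcripts with and without the A-rich window could not be told apart.

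The first 24 bases of the annotated Pabpc1-201 transcript, at chr15:36608950-36608973 on the minus strand, open with a pyrimidine run, shown in capitals, as do those of Pan3-209 at chr5:147430453-147430476 on the plus strand.
Pabpc1-201 start: CCCCTTCTCCCCggcggttagtgc
Pan3-209 start: CTCCCCgggcggctccggctccct

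The Pabpc1 run is 12 bases long and the Pan3 run 6. A start with C on the transcript strand, followed by C or T to a run of at least 5, was found in 2 of the 10 members and in 2.24% of 21756 genes with a representative coding transcript, while 0.179% had a run of at least 12. The Pabpc4 transcripts carried no such start. A match describes the annotated letters and does not show a functional tract.

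The libraries held 15804115 to 17954066 reads assigned to genes, recovered from the FPKM as described under the processing. FPKM divides reads by gene length and library size. The deposited length was 6540 bases for Pabpc1 and 2288 for Tob1. Pabpc1-201 has only 467 leader, 1911 coding and 439 3′ untranslated bases. Levels, shares and ratios between genes thus depend on the lengths used, while the ratio of the groups for 1 gene does not. G3bp1 (ENSMUSG00000018583), the targeted gene, stood at 8.46, 8.46 and 9.10 FPKM in the Flox libraries and at 4.66, 4.27 and 4.44 in the HKO libraries (ratio 0.514, log2 fold change -0.83), so each library matched its label. Of 11856 genes tested with limma, the threshold of 0.05 on the Benjamini-Hochberg adjusted p was passed by 1, which fell in HKO, or 0.00843% of them. That gene was not G3bp1, which had an adjusted p of 0.11 in limma. With 3 libraries per group, a gene that did not pass may still have changed. Before adjustment, 904 genes (7.62%) had a p below 0.05.

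Markers of liver cell types gave the setting. All 10 hepatocyte markers, such as albumin, were detected, 3 with a higher and 7 with a lower mean in HKO. Their summed level was 48950 to 51150 FPKM in Flox and 42780 to 51960 in HKO. All 13 Kupffer cell and macrophage markers had a higher mean in HKO, with a summed level of 187.7 to 322.9 FPKM in Flox and 272.6 to 419.1 in HKO, none of them was at 0, and 0 passed the adjusted threshold in limma (5 had an unadjusted p below 0.05). All 5 erythroid markers had a lower mean in HKO, with sums of 294.5 to 333.4 in Flox against 136.0 to 269.6 FPKM, and 0 passed (4 before adjustment). The mean was higher in HKO for 6 of 7 sinusoidal endothelial, 5 of 8 stellate and 3 of 4 tested cholangiocyte markers. It was also higher for 3 of 3 tested B and plasma cell, 1 of 1 T and NK cell and 0 of 2 neutrophil markers. In these lists 0 passed (1 before adjustment, a B and plasma cell marker). In bulk tissue, fewer cells of a type and less RNA per cell cannot be told apart.

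Of the 10 members, 5 had a higher and 5 a lower mean in HKO. All HKO libraries lay above all Flox libraries in 2 members, Pabpc4 and Pabpc1, and below them in 1, Tob1, while the other 7 overlapped. Among all genes tested, 6.06% lay wholly above, 7.21% wholly below and 13.3% either way. Since Pabpc4 was picked for this separation, nothing is read from the share of members. The median log2 fold change (HKO minus Flox, on log2(FPKM + 1)) was 0.04 over the members and -0.01 over all genes tested.

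**Figure D1:**
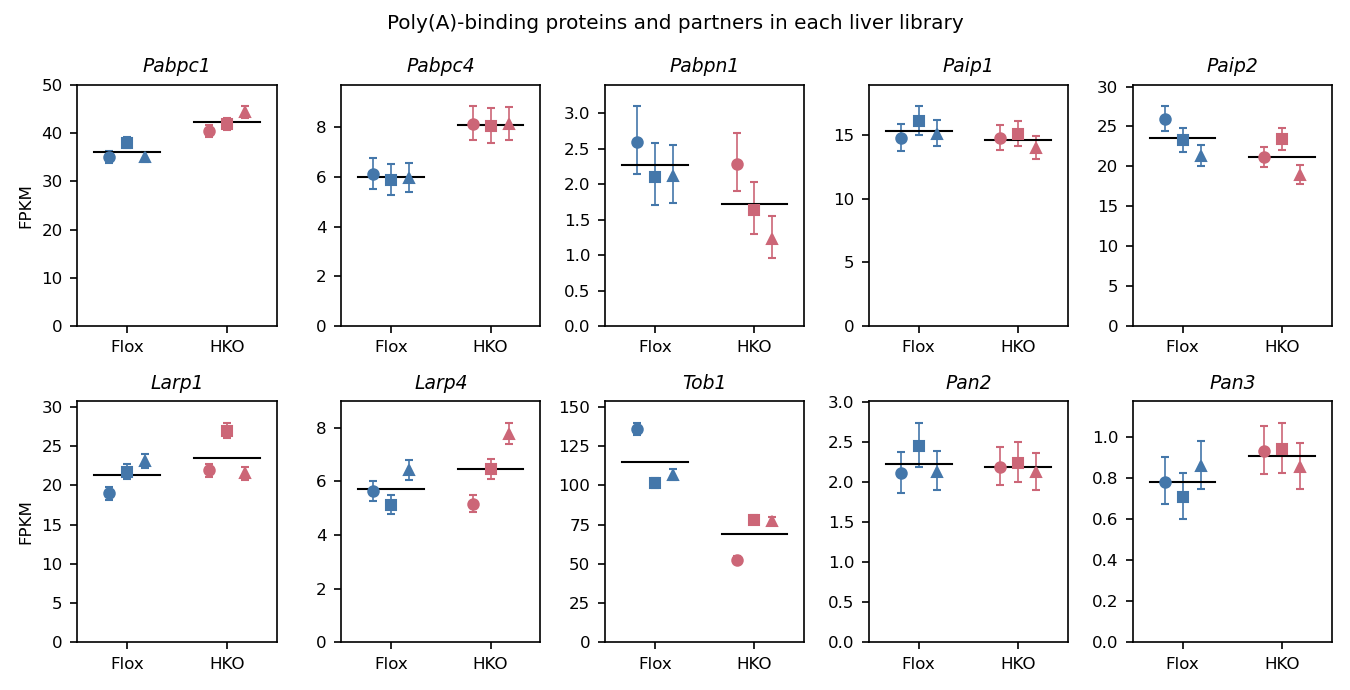
FPKM of each member (vertical axis, from 0) in the 3 Flox (blue) and 3 HKO (red) libraries. The circle, square and triangle are replicates 1, 2 and 3, the thin bars exact Poisson 95% intervals of the reads (counting error only), and the black line the group mean. The groups are separate in Pabpc1, Pabpc4 and Tob1 and overlap in the other 7 members.

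Pabpc4 (ENSMUSG00000011257, chromosome 4, 123262351 to 123298925 on the plus strand, GRCm38) encodes the inducible cytoplasmic poly(A)-binding protein. It stood at 6.11, 5.87 and 5.97 FPKM in Flox 1, 2 and 3 and at 8.15, 8.05 and 8.13 FPKM in HKO 1, 2 and 3. All HKO libraries were high and close together, all Flox libraries were low, and the gap between the groups was far wider than the spread within either. The means were 5.98 ± 0.12 and 8.11 ± 0.0527 FPKM (SD, n = 3), a ratio of 1.36, and the log2 fold change was 0.38 (SE 0.083). That size exceeds 92.5% of the absolute changes among genes tested.

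The Pabpc4 replicates lay closer together than their read counts would lead to. The values rest on 378, 351 and 404 reads in Flox against 582, 541 and 607 in HKO. With such counts, Poisson sampling alone would give a coefficient of variation near 5.15% in Flox and 4.17% in HKO, whereas the observed values were 1.999% and 0.65%. The replicate SD therefore understates the error of these means. Exact Poisson 95% intervals, which cover counting error only, reached no higher than 6.76 FPKM in Flox and no lower than 7.39 in HKO. Since Pabpc4 was selected on these values, the gap describes the choice and supports nothing further.

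The macrophage markers, higher on average in HKO, moved with the same groups as Pabpc4, and their part in its difference was not tested. In 1 pair of a Flox and an HKO library the order differed, and in every other such pair it was the same. Flox 3 had a macrophage sum of 322.9 FPKM, above the 272.6 of HKO 2, while its Pabpc4 level of 5.97 FPKM lay below the 8.05 of HKO 2. Reads of Pabpc4 are somewhat uncertain, because 9 predicted genes (names beginning with Gm) have transcripts at least 95% identical to it over at least 0.5 of the shorter transcript. The highest identity was 99.4%, and together these genes took 20 to 46 reads per library.

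Pabpc1 (ENSMUSG00000022283, chromosome 15, 36595661 to 36609668 on the minus strand) is the main cytoplasmic poly(A)-binding protein gene of most tissues. It stood at 35.04, 38.05 and 35.03 FPKM in Flox 1, 2 and 3 and at 40.4, 42.0 and 44.4 FPKM in HKO 1, 2 and 3. The HKO libraries were again the high ones, but Flox 2 and HKO 1 came close to each other. The means were 36.0 ± 1.74 and 42.3 ± 1.98 FPKM (SD, n = 3), a ratio of 1.17, with a log2 fold change of 0.22 (SE 0.1). The Poisson interval of Flox 2 ended at 39.29 FPKM and that of HKO 1 began at 39.28. Gm16580, the 1 near-identical copy, is 97.2% identical and held 6 to 24 reads per library, against 3522 or more in Pabpc1.

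The summed level of both cytoplasmic genes was 41.1, 43.9 and 41.0 FPKM in Flox against 48.6, 50.02 and 52.5 in HKO. Pabpc4 supplied 14.8%, 13.4% and 14.6% of that sum in Flox and 16.8%, 16.1% and 15.5% in HKO. The share did not overlap between groups, which carries over from the choice of Pabpc4. A ratio within a library is the same under any scaling of whole libraries. Pabpc1 remained the larger part in every library.

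The other cytoplasmic family genes were close to silent. Pabpc2 and Pabpc6 had 0 reads in all 6 libraries. Pabpc1l, Pabpc4l and Pabpc5 reached at most 0.0695 FPKM, far below the filter of at least 0.5 FPKM in at least 3 libraries. In these livers the cytoplasmic poly(A)-binding protein messages were thus nearly all Pabpc1 and Pabpc4.

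Pabpn1 (ENSMUSG00000022194, chromosome 14), the nuclear protein that stimulates tail synthesis, differed from the cytoplasmic pair. It stood at 2.59, 2.11 and 2.12 FPKM in Flox 1, 2 and 3 and at 2.28, 1.64 and 1.23 FPKM in HKO 1, 2 and 3. HKO 3 was lowest and Flox 1 highest, but HKO 1 lay inside the Flox range. With only 69 to 123 reads per library, the log2 fold change was -0.28 (SE 0.16). It was -0.15 without HKO 3, -0.43 without HKO 1 and -0.45 with voom on recovered reads. Exons of Gm20521 on the same strand cover 21.4% of the Pabpn1 exons, and Gm20521 itself is listed at 0 FPKM, so reads in the shared part may have been discarded or credited to Pabpn1.

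Paip1 (ENSMUSG00000025451, chromosome 13), which binds PABPC and stimulates translation, was level. It stood at 14.8, 16.1 and 15.1 FPKM in Flox and at 14.8, 15.1 and 14.0 in HKO, with overlapping groups and a log2 fold change of -0.06 (SE 0.091). Its direction turned under 2 of the scalings, to 0.11 with TPM (values rescaled to the same sum in every library) and to 0.01 when scaled by assigned reads. Relative to the median of all genes tested under the same scaling, Paip1 stood at -0.04 in both.

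Paip2 (ENSMUSG00000037058, chromosome 18), which displaces PABPC from the tail, stood at 25.9, 23.3 and 21.3 FPKM in Flox and at 21.1, 23.4 and 18.9 in HKO. Flox 1 was high and HKO 3 low, and the remaining libraries of both groups were mixed. On the log2 scale the difference was -0.15 (SE 0.12), or 0.03 with TPM. It was -0.08 without Flox 1 and -0.07 without HKO 3. Its relative Paip2b stood at 3.49 ± 0.313 FPKM in Flox against 4.03 ± 0.344 in HKO (SD, n = 3).

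Set against the summed cytoplasmic pair, both regulators were lower in HKO. The Paip1 level divided by that of Pabpc1 plus Pabpc4 was 0.359, 0.367 and 0.369 in Flox and 0.304, 0.302 and 0.267 in HKO. For Paip2 the ratio was 0.630, 0.529 and 0.520 in Flox and 0.435, 0.468 and 0.361 in HKO. Neither ratio overlapped between groups. The denominator includes Pabpc4, which was chosen for its difference, so the ratios carry that choice in part. Pabpc1 was the larger part of the denominator in every library. The Paip2 to Paip1 ratio was 1.54 ± 0.19 in Flox and 1.44 ± 0.0998 in HKO (SD, n = 3), and it overlapped.

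**Figure D2:**
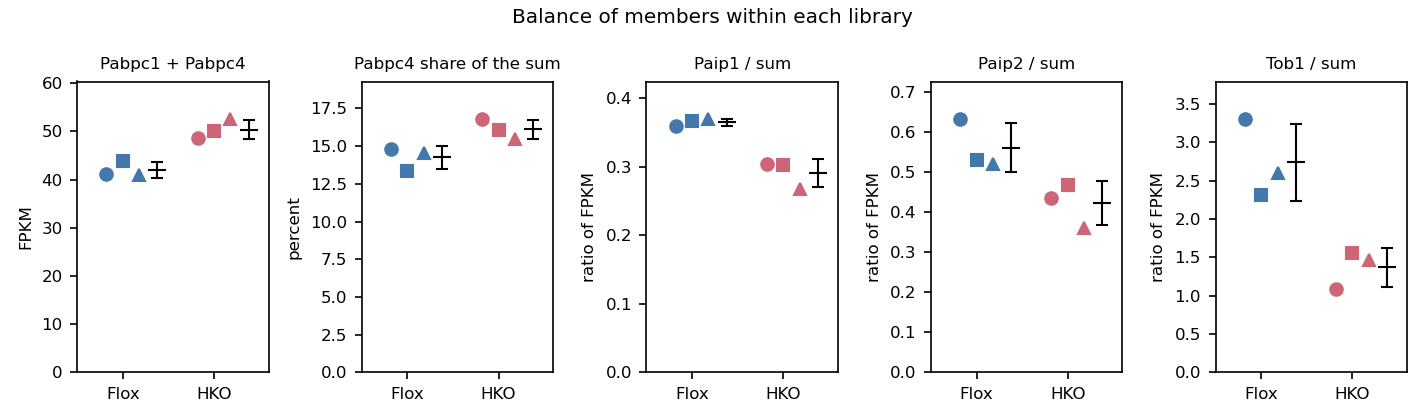
Summed FPKM of Pabpc1 and Pabpc4, the Pabpc4 percentage of that sum, and the FPKM of Paip1, Paip2 and Tob1 divided by the sum, in each Flox (blue) and HKO (red) library. Symbols mark replicates 1 to 3 and black marks the mean ± SD. HKO lies above Flox in the first and second panels, at 48.6 to 52.5 against 41.0 to 43.9 FPKM in the first, and below Flox in the other panels.

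Tob1 (ENSMUSG00000037573, chromosome 11, 94211454 to 94215495 on the plus strand) encodes an antiproliferative adaptor between PABPC and the CCR4-NOT deadenylase. It had the highest FPKM of the members and the widest difference. It stood at 135.8, 101.5 and 106.8 FPKM in Flox 1, 2 and 3 and at 52.7, 78.1 and 77.3 FPKM in HKO 1, 2 and 3. All HKO libraries were low, and HKO 1 was the lowest by a wide margin, as Flox 1 was the highest.

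The Tob1 means were 114.7 ± 18.5 and 69.3 ± 14.5 FPKM (SD, n = 3), a ratio of 0.604. The log2 fold change of -0.73 (SE 0.19) is larger in size than 98.6% of the absolute changes among genes tested. The values rest on 2137 to 4776 reads, so counting error (1.57% in Flox and 1.91% in HKO) is far below the observed coefficients of variation of 16.1% and 20.8%. With 1 library left out, the log2 fold change lay between -0.82 and -0.54. No near-identical copy and no overlapping exon was found for Tob1.

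HKO 1, the lowest library for Tob1, also had the highest macrophage sum (419.1 FPKM) and the lowest erythroid sum (136.0 FPKM). Their part in the result was not tested. Flox 3 and HKO 3 had similar macrophage sums, 322.9 and 342.3 FPKM, with Tob1 at 106.8 and 77.3 FPKM. The erythroid sums of these libraries differed, at 333.4 and 206.5 FPKM. The paralogue Tob2 stood at 8.28, 5.05 and 10.1 FPKM in Flox and 6.68, 5.20 and 9.28 in HKO, with wide overlap. Tob1 divided by the summed cytoplasmic pair was 3.30, 2.31 and 2.61 in Flox and 1.08, 1.56 and 1.47 in HKO.

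Larp1 (ENSMUSG00000037331, chromosome 11, 58009064 to 58062034 on the plus strand) stood at 19.0, 21.8 and 23.1 FPKM in Flox and 21.9, 27.0 and 21.5 in HKO. HKO 2 was high and Flox 1 low, and 2 HKO libraries lay within the Flox range. Its log2 fold change was 0.13 (SE 0.13) and was 0.06 without Flox 1 and 0.03 without HKO 2.

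Larp4 (ENSMUSG00000023025, chromosome 15), a PABPC-binding factor that stabilizes messages, stood at 5.63, 5.13 and 6.43 FPKM in Flox and 5.17, 6.47 and 7.78 in HKO. HKO 3 was high and HKO 1 among the lowest, so the groups overlapped. Its log2 fold change was 0.14 (SE 0.15) and was 0.02 without HKO 3, 0.08 without Flox 2, 0.21 without Flox 3 and 0.27 without HKO 1. The Larp1 to Larp4 ratio was 3.74 ± 0.451 in Flox and 3.73 ± 0.831 in HKO (SD, n = 3). An antisense gene overlaps 1.88% of the Larp4 exons, and 2 copies of up to 98.5% identity held at most 3 reads.

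Pan2 (ENSMUSG00000005682, chromosome 10), the catalytic subunit of the PAN2-PAN3 deadenylase, was level at 2.11, 2.45 and 2.13 FPKM in Flox and 2.19, 2.24 and 2.12 in HKO. Its log2 fold change was -0.02 (SE 0.091), and the sign turned with TPM (0.13), with scaling by assigned reads (0.04) and without Flox 2 (0.03). Pan3 (ENSMUSG00000029647, chromosome 5), the subunit that contacts PABPC, had the lowest FPKM of the members. It stood at 0.783, 0.707 and 0.859 FPKM in Flox and 0.931, 0.942 and 0.855 in HKO. HKO 3 lay just under Flox 3 and closed the gap between the groups. The log2 fold change was 0.10 (SE 0.09), a scale on which a gene below 1 FPKM moves little, and with voom on 157 to 247 reads it was 0.21.

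**Figure D3:**
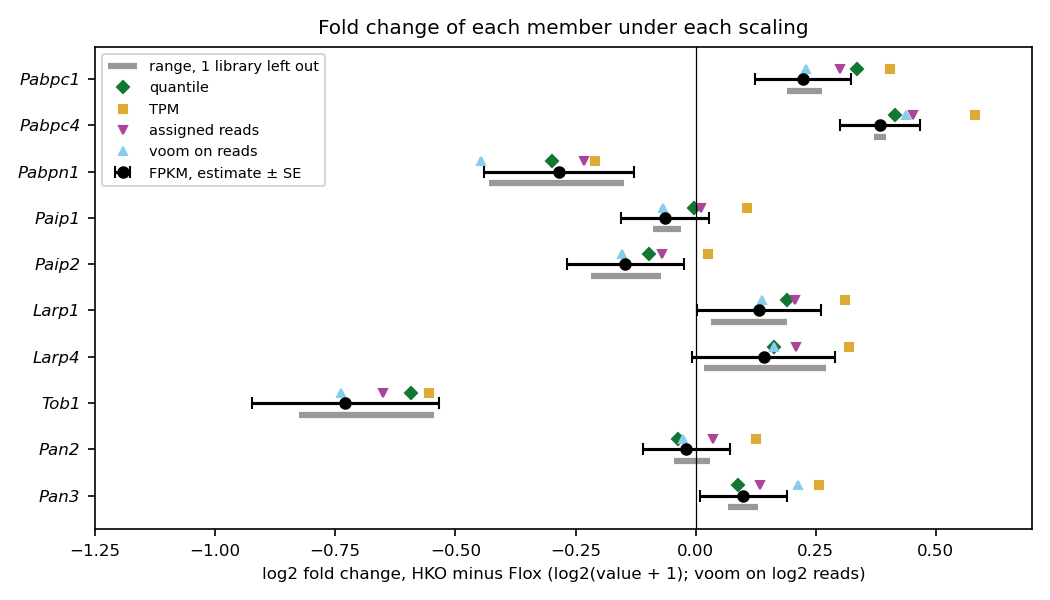
Log2 fold change of each member (horizontal axis, HKO minus Flox). Black points are estimates from FPKM ± SE, coloured symbols are estimates under quantile normalization, TPM, scaling by assigned reads and voom (on log2 reads), and the grey bar is the range with 1 library left out. Pabpc1, Pabpc4, Larp1, Larp4 and Pan3 stay above 0 and Tob1 and Pabpn1 below 0 throughout, while Paip1, Paip2 and Pan2 cross 0 under at least 1 setting.

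FPKM sums over all genes were 431497 to 494433 in Flox against 412344 to 422735 in HKO, and rescaling them to TPM moved the median log2 fold change of all genes to 0.15. Relative to that median, Pabpc4 stood at 0.43, Pabpc1 at 0.26 and Tob1 at -0.70 with TPM. The groups stayed apart for these 3 genes under TPM and under scaling by assigned reads. With TPM the groups also separated for Pan2 and Pan3, both above. The share of all genes that separate under these scalings was not computed, so nothing is read from these separations. Relative to the median of all genes with TPM, Pan2 stood at -0.02, Pan3 at 0.11, Paip1 at -0.04 and Paip2 at -0.12.

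The order of FPKM levels, which depends on the gene lengths used, was nearly the same in both groups. In Flox it ran from Tob1 through Pabpc1, Paip2, Larp1, Paip1, Pabpc4, Larp4, Pabpn1 and Pan2 to Pan3. In HKO, Larp1 came before Paip2 and Pan2 before Pabpn1. Those neighbours overlapped in range in both groups, so their exchange lies within the spread. Pabpc4 and Larp4 also overlapped in Flox, where their ranges were 5.87 to 6.11 and 5.13 to 6.43 FPKM, and not in HKO, where all Pabpc4 values were above all Larp4 values. Among genes tested, the Flox mean of Tob1 exceeded that of 95.9%, Pabpc1 89.2%, Pabpc4 60.5% and Pan3 9.95%.

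The highest and lowest values of the members were spread over the libraries. Flox 1 was the highest library for 3 members, Flox 2, HKO 2 and HKO 3 for 2 each, HKO 1 for 1 and Flox 3 for 0. HKO 3 was the lowest for 3 members (Pabpn1, Paip1 and Paip2) and so was Flox 2 (Pabpc4, Larp4 and Pan3). ATTTA on the transcript strand, the core of AU-rich decay elements, occurred in the annotated 3′ untranslated region of 8 of the 10 members, against 61.8% of genes.

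By the likeness rule, 5 genes came closest to Pabpc4 over the 6 libraries, among 8314 protein-coding candidates of at least 1 FPKM on average. Likeness was the mean absolute difference between log2(FPKM + 1) values after each gene was centred on its own mean. It was 0.0291 for Poglut1, a protein O-glucosyltransferase, with 2.29 ± 0.0934 FPKM in Flox against 3.21 ± 0.0811 in HKO (SD, n = 3). For the phospholipid flippase gene Atp11a it was 0.0311, and for Nomo1, an endoplasmic reticulum membrane protein, 0.0357. Cdc42se2 followed at 0.0361 and the zinc finger gene Zfp869 at 0.0419. Because Pabpc4 is nearly flat within each group, genes close to it are those with the same step between groups.

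The wider pathway was described with 7 lists of 118 genes that are not members, of which 109 passed the filter. In limma 0 of the 109 passed at an adjusted p under 0.05, against 0.00843% of all genes. Before adjustment 4 had a p below 0.05 (1 higher and 3 lower), or 3.67% against 7.62% of all genes, and with voom on recovered reads 0 passed and 6 had such a p. That count depended on the setting, at 2 without Flox 1, 14 without Flox 3, 10 with quantile normalization and 16 with TPM. The shares of all genes under those settings are not given here. Groups did not overlap in 16 of the 109, or 14.7% against 13.3% of all genes. The median log2 fold change was 0.05.

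Deadenylation genes other than the members gave no passing gene. Of 20 subunits and cofactors of CCR4-NOT and other deadenylases, 14 had a higher and 6 a lower mean (median log2 fold change 0.09). Cnot1, the scaffold of the complex that TOB1 recruits, stood at 4.51 ± 1.03 FPKM in Flox against 5.98 ± 0.963 in HKO (SD, n = 3), and Cnot11 at 5.76 ± 0.333 and 4.90 ± 0.332. Both had an adjusted p of 0.667 in limma.

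Tail synthesis genes, here cleavage factors and poly(A) polymerases, were higher in 16 of 23 and lower in 7 by their means (median 0.05), and 0 passed. Nudt21, a cleavage factor subunit that sets the site of polyadenylation, stood at 4.18 ± 0.194 FPKM in Flox against 4.93 ± 0.372 in HKO, and Cpsf1 at 6.71 ± 0.913 and 7.997 ± 0.446 (SD, n = 3). Of 16 decapping and 5′ decay genes 8 were higher and 8 lower, with the LSM ring subunit Lsm2 at 5.29 ± 0.465 and 4.03 ± 0.424 FPKM and Lsm3 at 1.17 ± 0.204 and 0.785 ± 0.324.

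Of 15 exosome and 3′ decay genes, 3 were higher and 12 lower by their means in FPKM (median -0.07), but 12 were higher with TPM, of which 4 exceeded the median of all genes. Exosc5 stood at 5.39 ± 0.68 FPKM in Flox against 4.26 ± 0.109 in HKO, and the nuclease gene Dis3 at 0.864 ± 0.178 and 1.11 ± 0.179 (SD, n = 3). Without Flox 2, 8 of the 15 were higher. Scaled by assigned reads, 8 were also higher, of which 4 exceeded the median of all genes. Among 5 other family genes above the filter, Zc3h14, a nuclear poly(A)-binding zinc finger protein, stood at 4.12 ± 0.365 and 4.87 ± 0.423 FPKM.

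Ligands of PABPC and partners in the closed loop of cap and tail were higher in 10 of 16 and lower in 6 by their means (median 0.08), and 0 passed. Atxn2, whose protein binds PABPC and joins stress granules, had the smallest unadjusted p of the pathway genes. It stood at 4.24 ± 0.289 FPKM in Flox against 3.13 ± 0.143 in HKO (SD, n = 3), so the log2 fold change was -0.34 (SE 0.091), and limma gave an adjusted p of 0.58. Eif4b, an initiation factor that binds PABPC, stood at 54.9 ± 3.21 and 62.8 ± 2.90 FPKM.

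Pabpc1 belongs to the class of TOP messages that LARP1 binds, so 14 others of that class were examined, mainly elongation and initiation factors. None carries an Rpl or Rps name. The list does include Fau, which encodes a ribosomal protein, and Rack1, whose protein sits on the ribosome. Their summed level was 3002, 3041 and 3016 FPKM in Flox and 3721, 3709 and 3362 in HKO, without overlap, also under TPM and scaling by assigned reads. Of the 14, 11 had a higher and 3 a lower mean (14 and 0 with TPM, where 12 exceeded the median of all genes), the median was 0.09, and 0 passed at an adjusted p under 0.05 in limma.

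Eef1a1 and Eef2 supplied most of that sum. Eef2, the translocation factor of elongation, stood at 393.3, 427.3 and 420.4 FPKM in Flox and 583.7, 544.8 and 506.3 in HKO. All HKO libraries were high. The difference was 0.40 on the log2 scale (SE 0.12), for which limma gave an adjusted p of 0.648. Eef1a1, which delivers aminoacyl-tRNA, stood at 1507, 1547 and 1643 FPKM in Flox and 1893, 1998 and 1860 in HKO, again without overlap. Here limma gave 0.29 on the log2 scale and an adjusted p of 0.651. Its 12 near-identical copies of up to 100% identity make its reads uncertain. Without Flox 3, and likewise without HKO 1, 8 of the 14 had a higher mean.

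**Figure D4:**
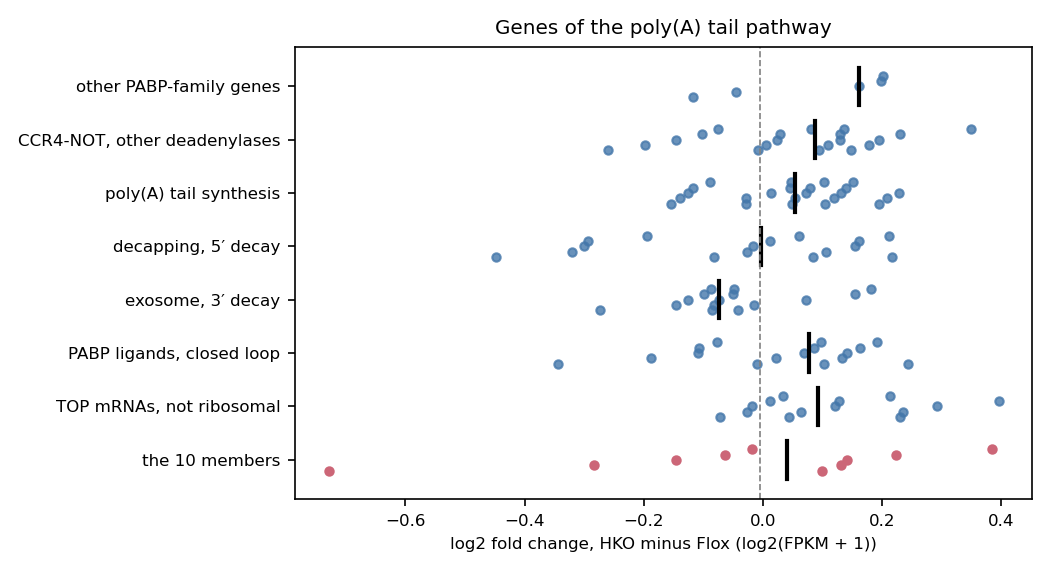
Log2 fold change (horizontal axis, HKO minus Flox on log2(FPKM + 1)) of each tested gene in the 7 pathway lists (blue) and of the 10 members (red). Black bars are list medians and the dashed line is the median of all genes tested. The TOP list, labelled as not ribosomal, does include the ribosomal protein gene Fau. List medians lie between -0.07 and 0.16, and the members run from -0.73 for Tob1 to 0.38 for Pabpc4.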

How the data were processed

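The authors deposited 1 table of FPKM values per gene and library, with replicates not pooled. Per the submitters' processing notes the builds were GRCm38 and mm10, with aligner and counter not given in the sources used here. Multiplying FPKM by the deposited gene length gave whole reads in each library (100% of values above 0 within 0.02). The library sizes behind the FPKM were proportional to median-ratio size factors. No sample column was left over. Members and gene lists were chosen with earlier results of these data known.

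Genes reaching 0.5 FPKM in 3 or more libraries were compared on log2(FPKM + 1), pseudocount 1, with limma 3.58.1 (R 4.3.3, trend and robust, statmod 1.5.0), two-sided, Benjamini-Hochberg adjusted over 11856 genes, threshold 0.05. The fit was tested on simulated data. All changes planted there were larger than that of any member, so changes of the members' size were not covered. This scale understates changes of low genes. Copies were sought with blastn 2.17.0 among GENCODE M21 transcripts. Older symbols were matched through RefSeq. Named pathway genes are the 2 with the smallest p in each list. Alternatives were another pseudocount, filters, scalings, voom, moderation, the replicate block and leaving out each library. Read intervals cover counting error only. NEBNext Ultra libraries do not mark strand, so antisense reads cannot be told apart.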

Additional observations from a re-analysis of the deposited data

How the results depend on the processing

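The number of genes past the threshold over all genes, 1 in the fit reported, was 0 with no filter, 2 among genes of at least 5 FPKM on average, 3 with voom on recovered reads and 0 with the replicate block. It ranged from 0 to 13 with 1 library left out, being 13 (12 lower and 1 higher) without HKO 1 and 0 without Flox 1, Flox 2, HKO 2 or HKO 3. Same-numbered libraries were not paired by the labels, and their deviations correlated at 0.02, 0.02 and 0.07, so the numbers were not taken as pairs. The log2 fold change of Pabpc4 was 0.43 with a pseudocount of 0.1, 0.58 with TPM, 0.41 with quantile normalization, 0.45 scaled by assigned reads and 0.44 with voom, and 0.37 to 0.40 with 1 library left out. Over all alternatives, Pabpc1 lay between 0.19 and 0.40 and Tob1 between -0.82 and -0.54. In none of the 7 pathway lists did a gene pass under any alternative run, where the smallest adjusted p was 0.256, without Flox 3. Pabpn1, Pan2 and Pan3 fell below the 5 FPKM filter. Depth limits Pabpn1, Pan2 and Pan3 most, at 69 to 333 reads per library.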
